A study of Capra hircus with 6 samples.

Results

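Genes of the mitochondrial respiratory chain were examined for chromatin that differed in accessibility between the lactating and the dry mammary gland of the dairy goat (*Capra hircus*). The assay was ATAC-seq on mammary epithelial cells (Tn5 transposase inserts adapters into DNA that nucleosomes leave exposed), with 3 libraries labelled lactation period and 3 labelled dry period. Age, breed and the number of goats per library are not given by the labels, so the libraries of a period may be technical repeats, and p-values then cover no more than the spread between these libraries. The 2 periods were compared in 1 table of 30714 regions, each listed at a p under 0.001 with a fold change, a p-value and a false discovery rate (FDR), and with no value per library. Regions were taken by position, without regard to p: those whose centre lay inside a member gene or within 10000 bp of one of its ends. Of the 48 member genes, 31 were matched to a gene position, and 44 of the 30714 regions lay at 20 of these 31 genes. The other 17, which belong to complex III, complex IV and the assembly of complex IV, were not matched and were not analysed here. Of the 31, 25 are subunits of complex I, 4 of complex II, 1 of complex IV (*NDUFA4*) and 1 of ATP synthase (*ATP5F1*).

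The respiratory chain sits in the inner mitochondrial membrane. Complex I takes electrons from NADH and complex II takes them from succinate, ubiquinone and cytochrome c carry them on to complex IV, and the proton gradient built on the way drives ATP synthase. Complex I consists of core subunits, which hold the flavin and the iron-sulfur clusters or form the proton pumps, and of accessory subunits, which surround and stabilise them. The nuclear genes for these subunits are active in nearly every cell type, and the milk-secreting cell draws on the ATP they provide for synthesis and transport.

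By their names the regions fall into 2 sets, here set 1 and set 2. The fold change, a linear ratio of one period over the other, lies above 1 throughout, so each set appears to gather what was more open in a single period. Neither file nor labels tell which set is lactation and which is the dry period, and directions are therefore stated by set. A listed region was called differing when its FDR was under 0.05. The highest p that met this was 6.21e-05 in set 1 and 5.63e-06 in set 2 of the authors' deposited table, so that set 2 needed a smaller p. A table of differing regions leaves open or closed chromatin that was alike in the 2 periods unlisted, so a gene without a listed region may be either. For the same reason it cannot check the cell type: of 6 epithelial marker genes 3 had a listed region, as did 6 of 9 marker genes of immune, endothelial, fibroblast and fat cells. Depth per library is unknown.

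Most respiratory chain genes had no region that passed an FDR of 0.05. Such a region lay within 10000 bp of 4 of the 31 genes (12.9%, 95% Wilson interval 5.13% to 28.9%): the core subunits *NDUFS3* and *NDUFS7* and the accessory subunits *NDUFB7* and *NDUFB10*. Over all 19063 protein-coding genes on the numbered chromosomes, 29.7% had one, and the interval of the members lies just under that share. A listed region of any FDR lay at 20 members (64.5%, 46.9% to 78.9%), against 59.8% of all coding genes. Set 1 regions lay at 16 members (51.6%, 34.8% to 68.0%), against 52.0% of all coding genes, and set 2 regions at 4 members (12.9%), against 19.4%. The shares of genes with a listed region of any FDR are near the background, and no test of the list was made. The intervals cover counting error only. Members were shorter than coding genes in general, with a median length of 10270 bp against 17760 bp, so their windows were smaller. Per 100 kb of gene and flank there were 3.82 listed regions of any FDR at members and 2.22 at all coding genes, with 3.48 and 1.80 in set 1 and 0.348 and 0.412 in set 2. In all values per 100 kb a region counts once for each gene it reaches. For all coding genes, 22150 regions thus enter as 30891 pairs of a gene and a region. Regions with an FDR under 0.05 came to 0.608 per 100 kb at members and 0.638 at all coding genes. Without *NDUFB10*, which alone had 13 of the 44 listed regions and 4 of the 7 with an FDR under 0.05, the values for members were 2.75 listed regions, 2.39 in set 1, and 0.266 with an FDR under 0.05.

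**Figure D1:**
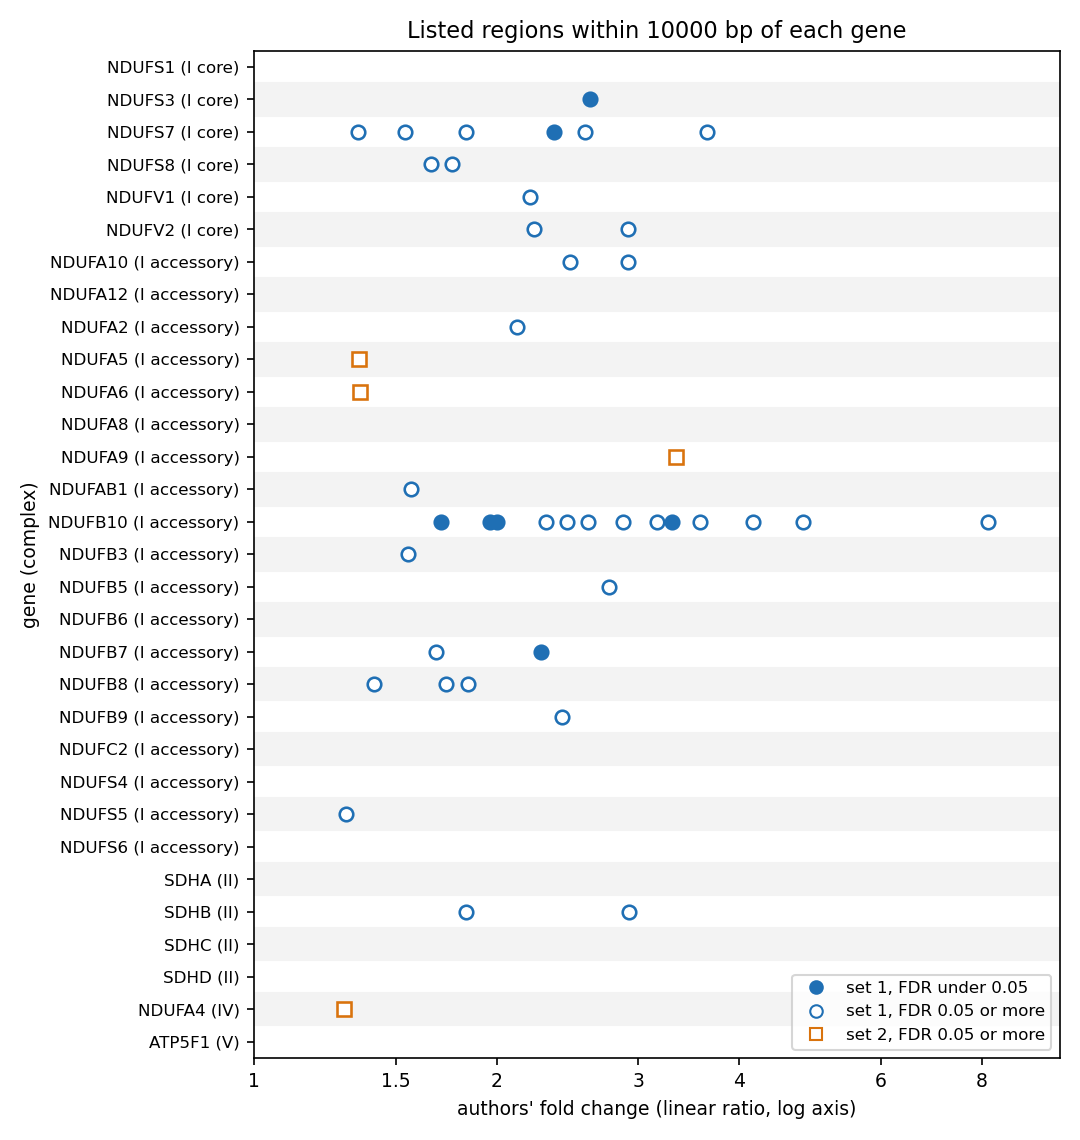
Fold change of every listed region within 10000 bp of each of the 31 matched genes, on a log axis, with 1 row per gene and its complex in brackets. Circles are set 1 and squares set 2, and filled symbols have an FDR under 0.05; the 7 filled symbols lie at 4 genes, 11 rows are empty, and no row holds both sets.

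Set 1 held 40 of the 44 member regions in the authors' deposited table (90.9%, 78.8% to 96.4%), and set 2 held 4. Among all 22150 listed regions within 10000 bp of a coding gene the set 1 share was 77.4%. Without the 13 regions of *NDUFB10* it was 87.1% of 31 regions (71.1% to 94.9%). These intervals, and the others over regions given below, treat regions as independent, although several lie close together at 1 gene. They are therefore likely too narrow, and no difference in share was tested. None of the 20 members with a region had regions of both sets, against 19.5% of the 11391 coding genes with a region. The 2 shares cannot be compared directly, because a gene with 1 region cannot hold both sets. Such genes were 12 of the 20 members and 4229 of the 11391 coding genes. At least 2 regions lay at 8 members, none of which held both sets, and at 7162 coding genes, of which 2222 did. This difference was not tested. Of these 20 members, 12 had 1 region, 5 had 2, and *NDUFB8* (3), *NDUFS7* (6) and *NDUFB10* (13) had more. At least 2 regions lay at 25.8% of the 31 members and 37.6% of all coding genes, at least 3 at 9.68% and 23.6%, and at least 6 at 6.45% and 5.85%. Of the 44 regions, 7 (15.9%, 7.93% to 29.4%) had an FDR under 0.05, all in set 1, against 27.8% of all listed regions, 34.2% of those in set 1 and 9.23% of those in set 2.

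The fold changes of the member regions were near those of other regions in set 1, and mostly small in set 2. The 40 set 1 regions of the authors' deposited table had a median fold change of 2.29 (range 1.30 to 8.15), against 2.33 for all 17136 set 1 regions within 10000 bp of a coding gene. The 4 set 2 regions had ratios of 1.29, 1.35, 1.35 and 3.34 in the authors' deposited table, against a median of 3.49 for the 5014 set 2 regions near coding genes (interquartile range 2.56 to 4.85). Thus 3 of the 4 lay below the lower quartile, while the fourth, at *NDUFA9*, lay close to the median. Of the 5014, 4554 lay over 1000 bp from an end of their nearest coding gene, with a median of 3.59. The 460 closer ones, which include those of *NDUFA4* and *NDUFA5*, had a lower median of 2.11.

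**Figure D2:**
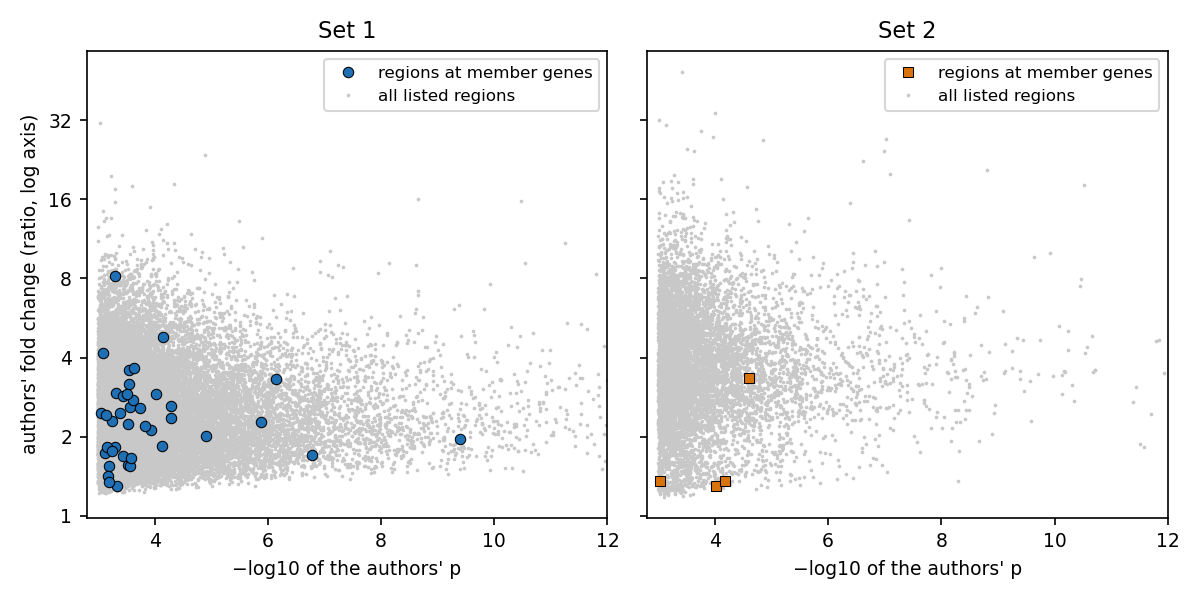
Fold change on a log axis against −log10 of the p-value for the regions at member genes (large symbols) and for all listed regions (grey), with set 1 left and set 2 right. The horizontal axis ends at 12, which leaves out 118 set 1 and 17 set 2 regions, none of them at a member gene; 3 of the 4 set 2 member regions lie at the lower edge of the fold changes at their p.

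Among the core subunits of complex I, 5 of 6 had a listed region, against 59.8% of all coding genes. All 12 of their regions were in set 1, as were 77.4% of the listed regions within 10000 bp of a coding gene. *NDUFS7*, which holds the last iron-sulfur cluster before ubiquinone, had 6 of the 12. The one nearest its end, 1023 bp outside the gene on chromosome 7 at 66677501 to 66677700, had a ratio of 2.36 per the authors' deposited table (p = 5.12e-05, FDR = 0.0440). Inside *NDUFS7* a second region (chromosome 7, 66674101 to 66674400) had the larger fold change, 3.65, but an FDR of 0.114 in the authors' deposited table. Of the remaining 4, 2 lie inside *GAMT*, the gene of the enzyme that makes creatine, and 2 are nearest to *DAZAP1*, an RNA-binding protein gene. Their fold changes ran from 1.35 to 2.58 in the authors' deposited table, with FDRs from 0.0966 to 0.216. The *NDUFS7* stretch thus holds regions of 1 direction only, of which 1 of 6 passed the FDR.

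*NDUFS3*, a core subunit of the arm that reaches ubiquinone, had 1 region, at the edge of the window. It lay 9807 bp from the gene on chromosome 15 at 5589901 to 5590600, with a ratio of 2.61 per the authors' deposited table (p = 5.16e-05, FDR = 0.0443). This region is nearest to *C1QTNF4*, a gene for a secreted protein related to complement C1q, and also lies within 10000 bp of *FAM180B*. Both calls among the core subunits are close to the FDR limit, and neither holds at an FDR of 0.01.

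*NDUFV1* binds the flavin and NADH, while *NDUFV2* and *NDUFS8* carry iron-sulfur clusters. None of their 5 regions passed the FDR. For *NDUFV1* the authors' deposited table listed 1 region, 8896 bp away and with no other coding gene in reach, at a ratio of 2.2 (FDR = 0.0864). *NDUFV2* had a region 816 bp from an end at a ratio of 2.23 (FDR = 0.132) in the authors' deposited table, and one at 2.91 (FDR = 0.135) inside its neighbour *ANKRD12*. At *NDUFS8* the authors' deposited table gave 1.76 (FDR = 0.194) for a region 714 bp from an end and 1.66 (FDR = 0.123) for one inside *TCIRG1*, a gene for a subunit of the vacuolar proton pump. *NDUFS1*, the largest iron-sulfur subunit, had no listed region.

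Of the 19 accessory subunits of complex I, 13 had a listed region, 10 in set 1 and 3 in set 2. Over all coding genes the shares were 59.8%, 52.0% and 19.4%. *NDUFB10*, a subunit of the membrane arm on the intermembrane side, stood apart by number, with 13 regions, all in set 1. Only 69 of 19063 coding genes (0.362%) had 13 or more within 10000 bp. The regions span 15.2 kb on chromosome 25, from 1423501 to 1438700, and cover 4100 bp of it. For the region with the lowest p of all members, inside *NDUFB10* at 1428301 to 1429000, the authors' deposited table gave a ratio of 1.96 (p = 4.00e-10, FDR = 7.95e-06). Both other regions inside *NDUFB10*, at 1427701 to 1428200 and 1429601 to 1429800, passed too, with 1.70 (FDR = 0.000818) and 2.0 (FDR = 0.0170) in the authors' deposited table. The fourth that passed, at 1431001 to 1431500, lies inside *RPS2*, a gene for a protein of the small ribosomal subunit, and had 3.31 in the authors' deposited table (FDR = 0.00239). Thus the 3 regions inside *NDUFB10* had the smallest fold changes of the stretch and 3 of its 4 lowest p-values.

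The other 9 regions around *NDUFB10* did not pass, and their fold changes were larger than those of the 3 regions inside the gene. They ran from 2.30 to 8.15 in the authors' deposited table, with FDRs from 0.0545 to 0.239. The largest, 8.15 (FDR = 0.182), lies with 2 neighbours at 3.57 and 4.16 in the authors' deposited table inside *RPL3L*, a gene for a muscle form of a ribosomal protein. Of the 13 regions, 3 have *NDUFB10* as their nearest coding gene, and all 13 also lie within 10000 bp of *RPS2*, which had 14. Which of the genes in the stretch the regions belong to cannot be told apart by position.

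**Figure D3:**
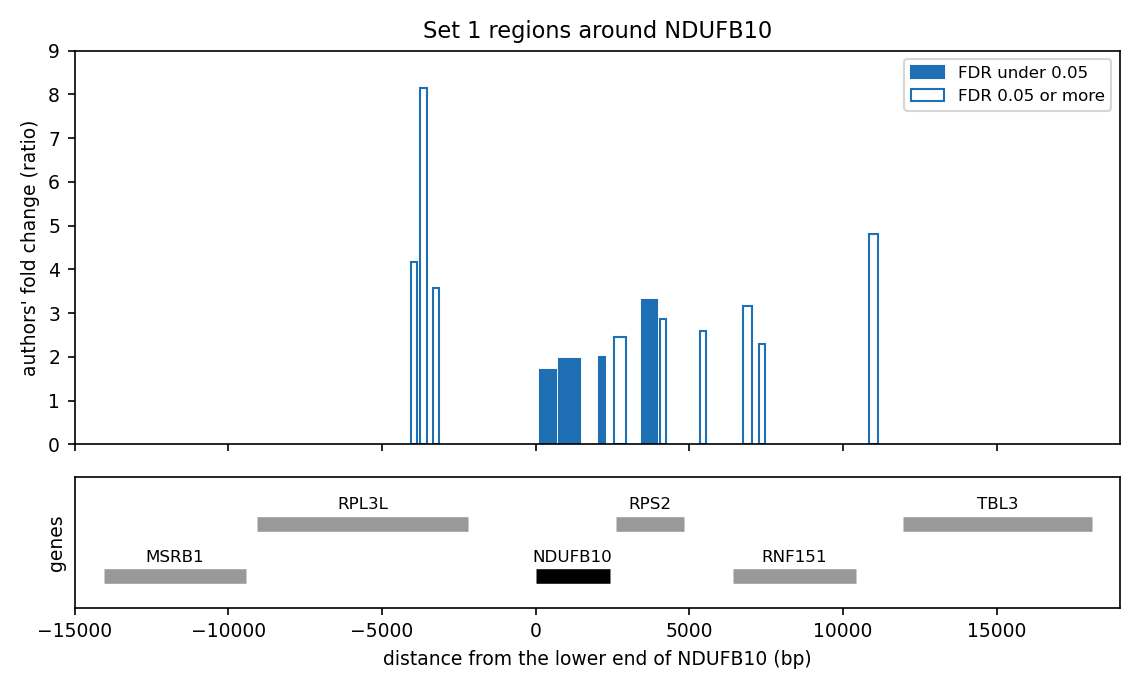
Fold change (linear, from 0) of the 13 set 1 regions within 10000 bp of *NDUFB10*, with bar width equal to region width, against distance from the end of *NDUFB10* with the lower coordinate; genes are drawn to scale underneath. Filled bars have an FDR under 0.05: 3 lie inside *NDUFB10* at ratios of 1.70 to 2.0 and 1 inside *RPS2* at 3.31.

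*NDUFB7*, another membrane arm subunit on the intermembrane side, had 2 set 1 regions. The one that passed lies 2117 bp from the gene on chromosome 7 at 96627801 to 96628200, with a ratio of 2.27 per the authors' deposited table (p = 1.34e-06, FDR = 0.00365). Its centre is inside *TECR*, the reductase of the last step of very long chain fatty acid elongation, 2054 bp from an end of that gene. On the other side of *NDUFB7*, a region 3532 bp away had 1.68 in the authors' deposited table (FDR = 0.150).

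The remaining set 1 regions of accessory subunits did not pass the FDR. Closest to passing were *NDUFB8* (ratio of 1.84 in the authors' deposited table, FDR = 0.0565), *NDUFA10* (2.91, FDR = 0.0649) and *NDUFA2* (2.12, FDR = 0.0738). *NDUFB8*, a subunit of the membrane arm, had 3 regions, and all 3 lie inside *SEC31B*, a gene for a coat protein of vesicles that leave the endoplasmic reticulum, 28 to 978 bp from its end. The *NDUFA10* region lies 886 bp from an end of that gene, and the *NDUFA2* region lies inside *IK*, 9169 bp from *NDUFA2*. A second region of *NDUFA10*, inside the gene, had 2.47 in the authors' deposited table (FDR = 0.253).

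*NDUFB5* and *NDUFS5* had their region within 1000 bp of an end, with ratios of 2.76 (FDR = 0.115) and 1.30 (FDR = 0.172) in the authors' deposited table. The *NDUFB3* region, 527 bp from an end of that gene and inside its neighbour *FAM126B*, had 1.55 in the authors' deposited table (FDR = 0.206). *NDUFB9* had 2.41 (FDR = 0.223) in the authors' deposited table, at a region inside *TATDN1*. *NDUFAB1*, the acyl carrier protein of mitochondria, which is also a complex I subunit, had 1.56 (FDR = 0.131) in the authors' deposited table, at a region inside the gene. Accessory subunits without a listed region were *NDUFA8*, *NDUFA12*, *NDUFB6*, *NDUFC2*, *NDUFS4* and *NDUFS6*. *NDUFS4* is the longest member, at 113931 bp. The 20 members with a region had a median length of 7768 bp and the 11 without one 17473 bp.

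Set 2 regions lay at 4 members, none of which passed an FDR of 0.05, and each of these members had 1 region. At *NDUFA4*, long assigned to complex I and now to complex IV, the region lies inside the gene, 405 bp from an end, on chromosome 4 at 101517901 to 101518200, with a ratio of 1.29 per the authors' deposited table (p = 9.64e-05, FDR = 0.277). At *NDUFA5*, an accessory subunit of the matrix arm, it lies 79 bp outside the gene on chromosome 4 at 32317201 to 32317500, with 1.35 per the authors' deposited table (p = 6.75e-05, FDR = 0.228). No other coding gene lay within 10000 bp of either region. Only 0.983% of the 7830 set 2 regions had a smaller fold change than that of *NDUFA4*, and 1.83% a smaller one than that of *NDUFA5*. Within 1000 bp of an end of the nearest coding gene, set 2 fold changes were lower in general (460 regions, median 2.11, lower quartile 1.40). Among these 460, the shares were 10.9% and 18.5%.

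*NDUFA9*, an accessory subunit next to the ubiquinone site, had the set 2 region with the lowest p of the members. It lies 1107 bp outside the gene on chromosome 5 at 104389201 to 104389400, with no other coding gene in reach and a ratio of 3.34 per the authors' deposited table (p = 2.51e-05, FDR = 0.128). The set 1 region with the closest p had an FDR of 0.0276 in the authors' deposited table, so the same p fell on the other side of the limit in set 1. *NDUFA6*, a small accessory subunit that binds the *NDUFAB1* protein, had a region at 1.35 in the authors' deposited table with an FDR of 0.841, inside *FAM109B* and 116 bp from *SMDT1*, a regulator of the mitochondrial calcium uniporter.

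Complex II, which is also an enzyme of the citric acid cycle, had a listed region at 1 of 4 genes, against 59.8% of all coding genes. *SDHB*, its iron-sulfur subunit, had 2 set 1 regions, at ratios of 2.92 (FDR = 0.176) inside the gene and 1.83 (FDR = 0.180) 9204 bp outside it in the authors' deposited table. *SDHA*, the flavin subunit, and the membrane anchors *SDHC* and *SDHD* had none. *ATP5F1*, the gene for the stalk subunit b of ATP synthase, had none either. The table lists 0 regions on the mitochondrial genome, which encodes the proton-pumping core subunits of complex I. How mitochondrial reads were handled is not given, so this count cannot be read as a lack of difference.

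The regions of the members lay mostly outside the genes. Of 44, 9 (at 7 genes) had their centre inside the member, 21 had it inside another coding gene, and for 18 (at 14 genes) the member was the nearest coding gene. Within 1000 bp of an end lay 11 of them (25%, 95% Wilson interval 14.6% to 39.4%), against 16.5% of the 30891 pairs of a coding gene and a listed region, while 5 (11.4%, 4.95% to 24.0%) lay deeper inside, against 43.7%. A shorter gene has less room inside, and members were shorter, as given above, but a link of length with these shares was not tested. These 11 were 9 set 1 regions at 7 genes, with a median ratio of 2.0 in the authors' deposited table, and the set 2 regions of *NDUFA4* and *NDUFA5*. All set 1 regions within 1000 bp of an end of their nearest coding gene had the same median, 2.0, although the 9 were taken by distance to the member, nearest or not. The gene table used gives no strand, so the start and the end of a gene could not be told apart.

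At the edge of the window, the last regions inside lay 9503 bp and 9903 bp from *NDUFS7* and 9807 bp from *NDUFS3*. The first outside lay 10073 bp from *NDUFS7*, 10132 bp from *NDUFB7* and 10243 bp from *NDUFB10*, all in set 1, with ratios of 2.27, 2.21 and 2.05 in the authors' deposited table. Between 10000 and 20000 bp outside the genes lay 25 more regions at 13 members, 24 in set 1 and 1 in set 2, of which 5 had an FDR under 0.05. The same counts were not made for all coding genes, so these have no background share beside them. Among the 13 members, *ATP5F1* and *NDUFC2* had no region within 10000 bp.

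Other genes of the pathway had regions with an FDR under 0.05 at 24.0% to 40.0% of genes per list, against 12.9% of the members and 29.7% of all coding genes; no difference between lists was tested. Shares are over genes placed on the numbered chromosomes. These were 10 of 24 entries for other respiratory chain subunits and 25 of 44 for other assembly factors. In the remaining lists all or nearly all entries were placed. Of the 10 other respiratory chain subunits, 4 had a region with an FDR under 0.05, *NDUFA3*, *NDUFA7*, *NDUFA11* and *NDUFA13*, all in set 1. The lowest FDR in the authors' deposited table was 3.21e-05 at *NDUFA13*, for a region 9301 bp away and nearest to *YJEFN3*, with a ratio of 1.96. None of the 6 such regions of these 4 genes has the subunit gene as its nearest coding gene. *NDUFA3* and *NDUFA11* also had set 1 regions at ratios of 3.97 and 3.35 in the authors' deposited table, both at an FDR over 0.05. Of 15 other ATP synthase subunits, 5 had one, all in set 1, among them *ATP5G1*, a subunit of the rotating ring, at 1.92 inside the gene (FDR = 0.000566), and *ATP5A1*, the alpha subunit, at 4.28 (FDR = 0.00217) for a region nearest to *PSTPIP2* in the authors' deposited table. Inside *ATP5A1* itself, regions at 1.55 (FDR = 0.0306) and 1.78 (FDR = 0.0412) in the authors' deposited table also passed. The other genes were *ATP5B*, *ATP5D* and *ATP5J2*. The regions that passed at *ATP5B* are nearest to *BAZ2A*, that at *ATP5D* to *CBARP*, and those at *ATP5J2* to *CPSF4* or *ATP5J2* itself. The largest ratios were 6.66 at *ATP5C1*, in set 2, and 5.68 and 4.48 at *ATP5B*, in set 1, in the authors' deposited table, and none of these 3 passed. Of 25 other assembly factors, 6 had one, led by *NDUFAF3*, a complex I assembly factor, at 1.78 in the authors' deposited table (FDR = 4.66e-08), nearest to *DALRD3*. The others were *ATPAF2*, *FOXRED1*, *LYRM7*, *NDUFAF2* and *TMEM70*, all in set 1. The region that passed at *NDUFAF2* lies inside that gene. At the rest, the nearest coding gene is another: *DRC3* at *ATPAF2*, *TIRAP* at *FOXRED1*, *HINT1* at *LYRM7* and *LY96* at *TMEM70*. Ratios were largest, at an FDR over 0.05, for *ACAD9* (9.24, set 2), *TTC19* (6.18, set 1) and *TMEM70* (5.95, set 1) in the authors' deposited table.

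**Figure D4:**
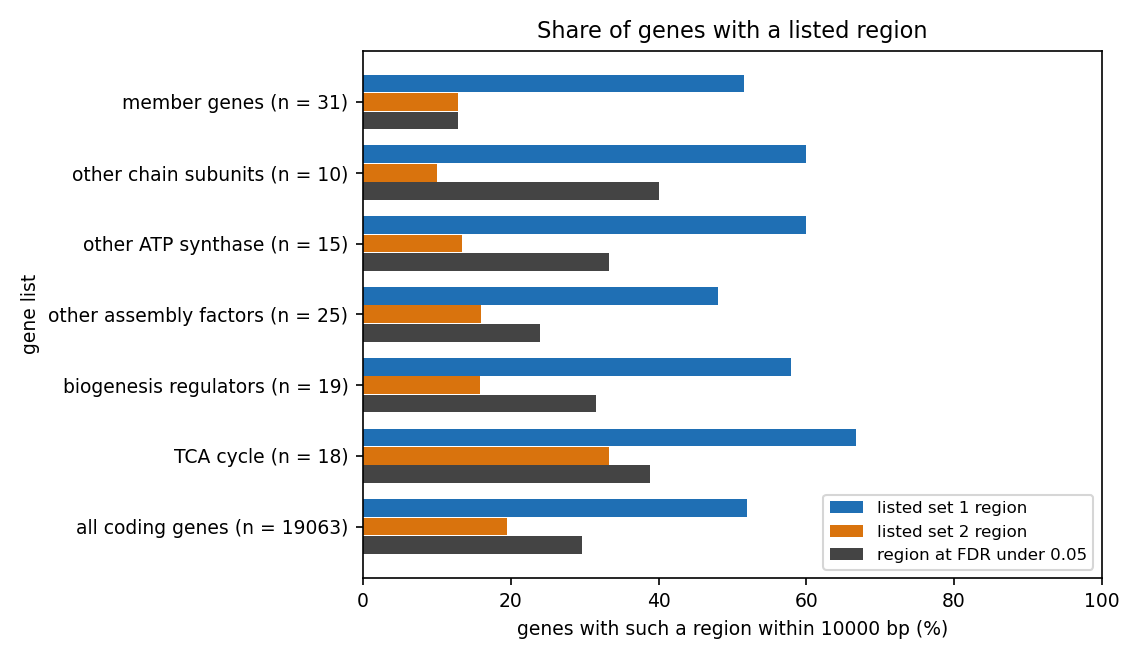
Percentage of genes in each list with a listed set 1 region, a listed set 2 region, and a region of either set at an FDR under 0.05, within 10000 bp of the gene. Member genes have 51.6%, 12.9% and 12.9%, and all 19063 coding genes 52.0%, 19.4% and 29.7%; the lists hold 10 to 31 genes each, so single genes move the bars.

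Regulators of mitochondrial biogenesis had such a region at 6 of 19 genes, 5 in set 1 and 1 in set 2. *TFAM*, which packs mitochondrial DNA and takes part in its transcription, had a set 1 region 557 bp from an end at a ratio of 2.16 in the authors' deposited table (FDR = 0.00403). *PPARGC1B*, a coactivator of respiratory genes, had the set 2 region, inside the gene, at 5.24 in the authors' deposited table (FDR = 0.0166). *NRF1*, a transcription factor of respiratory chain genes, had 2 set 2 regions at 8.38 (FDR = 0.306) and 8.18 (FDR = 0.837) in the authors' deposited table, neither of which passed. The other 4 genes with a region that passed were *ESRRA*, *GABPB2*, *POLG2* and *PPARA*, in set 1. That of *ESRRA* is nearest to *TEX40*, and among those of *GABPB2* and *POLG2* are regions nearest to *SEMA6C* and *DDX5*. A second *TFAM* region had the third largest ratio of the list, 7.2 (FDR = 0.130), in the authors' deposited table. In the citric acid cycle and pyruvate list, 7 of 18 genes had one, and *MPC1*, which brings pyruvate into mitochondria, had one in each set, at 3.17 (FDR = 0.0345) in set 1 and 1.54 (FDR = 3.32e-08) in set 2 of the authors' deposited table. The other 6, *CS*, *DLAT*, *IDH2*, *IDH3B*, *MDH2* and *MPC2*, had theirs in set 1. The regions that passed at *DLAT* and *MPC2* are nearest to *DIXDC1* and *DCAF6*. Neither the ratio of 5.01 at *SUCLG2* in set 1 nor that of 6.54 at *PDHX* in set 2 of the authors' deposited table passed the FDR.

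Set 2 regions within 1000 bp of a gene end with small fold changes were also listed in these other lists. They were at *NDUFA11* (1.24, FDR = 0.843), *ATP5C1* (1.33, FDR = 0.474) and *ATP5J* (1.32, FDR = 0.447) in the authors' deposited table. The *ATP5J* region also lies inside *GABPA*, a transcription factor gene. With *MPC1* and *SDHAF2* (4.03, FDR = 0.832 in the authors' deposited table) there were 5 set 2 regions at gene ends in these lists, with a median fold change of 1.33, of which that of *MPC1* alone passed the FDR.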

How the data were processed

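Per the labels' protocols, nuclei of 50000 cells per library were cut with Nextera Tn5 and read on the BGISEQ-500 platform. Bowtie2 2.2.5 and MACS2 are named, with no role, in the submitters' processing notes. Not given in the sources used here are the genome build, the caller of differing regions, a Tn5 shift, and the handling of duplicates and mitochondrial reads. The authors deposited a linear fold change (a ratio above 1 in both sets), p-values and Benjamini-Hochberg FDRs (q-values) for each region. The deposited signal score was not used. The deposited length column, another unit, is the width in bp (200 to 3000 bp).

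The table holds no value per library, so no test across libraries was run. Regions were matched by centre to gene positions of the RefSeq assembly ARS1.2, of which no coordinates are printed. Because the build of the regions is unnamed, the match was checked: 15.1% of 29978 regions on 29 chromosomes lay within 1000 bp of a coding gene end, against 5.78% and 5.90% after a shift of 100000 bp either way. Region coordinates are the authors', counted from 1. Genes on X and unplaced sequences were left out. Matching was tested on simulated regions. Members and 5 further lists (123 entries) were chosen with earlier results of these data known, so no list was tested; shares over all coding genes stand beside them. Every member with a listed region is named; of the other lists, genes with a region at an FDR under 0.05 and the 3 largest fold changes are named, except some that are not reported here; set 2 regions at gene ends in those lists were named after their values were seen. Promoter sequences and the planned motif search were not analysed here. Python 3.11.15, pandas 2.3.3, numpy 2.4.6, scipy 1.17.1 and matplotlib 3.10.9 were used.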

Additional observations from a re-analysis of the deposited data

How the results depend on the processing

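No paired analysis was possible because the table holds no value per library; leaving out single libraries was not run for the same reason. Of 39 recomputed values, 25 stayed within 1.5 times the main count or inside its 95% interval. The 44 regions at members became 24 with a window of 3000 bp, 9 with the centre inside the gene and 18 where the member had to be the nearest coding gene. The 20 genes with a region became 7 with the centre inside the gene. The 7 regions with an FDR under 0.05 became 3 inside the gene, 4 where the member was nearest, 4 at an FDR under 0.01, 4 at an unadjusted p under 1e-05, and 3 without *NDUFB10*, a setting chosen after seeing the data. The 4 genes with such a region became 1 inside the gene (*NDUFB10*), and 2 each where the member was nearest, at an FDR under 0.01 and at a p under 1e-05. The set 1 share became 100% among the 7 regions with an FDR under 0.05. Fewer regions enter each of these settings by construction. The median fold change, 2.25, ran from 1.84 without *NDUFB10* to 2.31 with the 3000 bp window. Depth per library is unknown, so what it limits cannot be stated.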
